A study of Triticum turgidum subsp. durum with 24 samples.

Results

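Endosperm at 20 days post anthesis (dpa) was compared with endosperm at 18 dpa across all genes of durum wheat. The comparison used the 3 libraries of 20 dpa (S19, S20 and S21, replicates 1 to 3) and the 3 of 18 dpa (S16, S17 and S18, replicates 1 to 3), 6 of the 24 libraries of a time course of 8 timepoints. All 6 came from wild-type plants of the durum variety Kronos, grown in controlled environment rooms, and the labels separate the groups by age only. Each 20 dpa library pooled 3 endosperms of 1 spike and each 18 dpa library pooled 4, so a library stands for 1 spike. The replicates of a timepoint came from independent plants, but different timepoints could share a plant. A spike was aged from its first visible anther. The estimated counts totalled 58278667 to 78676665 per library at 20 dpa and 56427026 to 64861415 at 18 dpa, and 44240 of the 66559 transcripts listed, 1 per gene, had enough counts to be tested.

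At this age the wheat endosperm fills with starch and storage protein. ADP-glucose is made in the cytosol by ADP-glucose pyrophosphorylase, carried into the amyloplast by Brittle1, and joined into amylopectin and amylose by starch synthases, branching enzymes and debranching enzymes. Towards maturity the starchy cells stop filling and die, while the aleurone layer around them stays alive. A dissected sample can hold both tissues. In such bulk samples, fewer cells of a type and less RNA per cell cannot be told apart.

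The labelled tissue was checked with genes known from the starchy endosperm. GBSS1-A1, a granule-bound starch synthase that makes amylose in the endosperm, was at 697, 642 and 464 TPM (transcript abundance scaled for length and library) in S19, S20 and S21 at 20 dpa, against 597, 563 and 660.1 TPM in S16, S17 and S18 at 18 dpa. AGPS1-A1, the small subunit of ADP-glucose pyrophosphorylase, was at 629, 557 and 404 TPM at 20 dpa, against 567, 750.2 and 792 TPM at 18 dpa. GBSS2-B1, the granule-bound form of pericarp and vegetative organs, stayed at 2.37 TPM or less at 20 dpa, against 2.67 to 3.42 TPM at 18 dpa. The reference gene ATG8d-B1 averaged 274 ± 32.5 TPM at 20 dpa and 278 ± 25.7 TPM at 18 dpa (SD, n = 3 each).

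One library stood apart from the others of its timepoint. S19 lay nearer to the 18 dpa libraries than to the other libraries of its own timepoint. Between a pair of libraries, the root mean square difference of log2 CPM, the counts scaled by library size, over the genes tested, was 0.79 to 0.85 for S19 with the 18 dpa libraries, and 0.82 to 0.95 among the 18 dpa libraries themselves. S20 and S21 differed from each other by 0.75, but from S19 by 1.29 and 1.32, and from the 18 dpa libraries by 1.21 to 1.46. The library nearest to S19 was S18 of 18 dpa, and the library nearest to S16 of 18 dpa was S19. After each other, S20 and S21 were nearest to a 15 dpa library, replicate 2 (S14), at 1.11 and 1.18. Results are given with all 3 libraries of 20 dpa and also with S19 as a level of its own. That split was set beforehand, because the profile of S19 had been seen to differ in these same data. The distances describe it and do not test it.

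**Figure D1:**
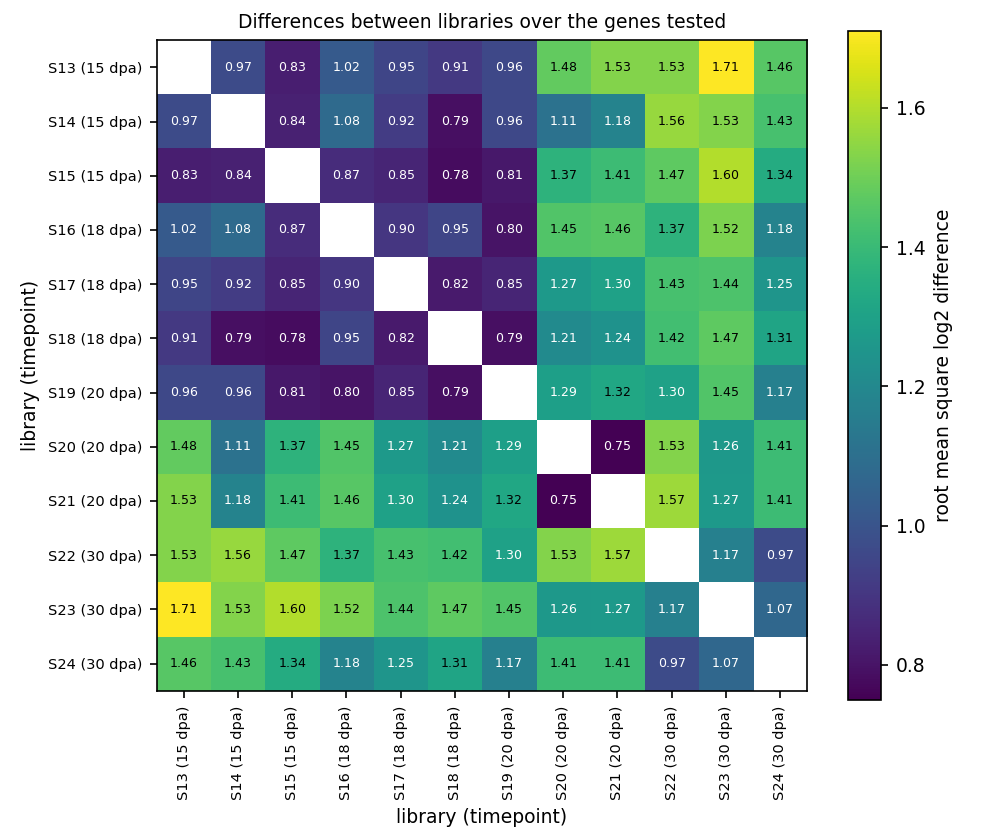
Root mean square log2 difference between each pair of the 12 libraries from 15 to 30 dpa over the genes tested, in log2 CPM; each cell is 1 pair and the axes run by library. S19 at 20 dpa has dark cells with S16 to S18 at 18 dpa (0.79 to 0.85), while S20 and S21 share a dark cell only with each other (0.75).

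The 20 dpa libraries were also placed on the line from the mean of 18 dpa, at 0%, to the mean of 30 dpa, at 100%. S19 lay at 12.6% of the way, S20 at 45.3% and S21 at 45.9%. Without 30 dpa replicate 2 (S23) in the mean, S20 and S21 lay at 0.316 and 0.320 of the way, as a fraction. The root mean square difference from the 30 dpa libraries was 1.26 to 1.57 for S20 and S21. It was 1.17 to 1.45 for S19 and 1.18 to 1.52 for the 18 dpa libraries, so these ranges overlapped and that of S20 and S21 was not the lowest. Each 18 dpa library, placed against the mean of the other 18 dpa libraries, lay at 10.9 to 21.6%, which is the range that holds S19. Those means held fewer libraries than the mean used for S19, S20 and S21, so the places are not fully alike. S20 and S21 had not moved evenly along this line. Of the genes at least 2-fold higher in the mean of 30 dpa than of 18 dpa, 4644 in number, the median gene had reached 73.6% of its log2 difference in S20, 73.2% in S21 and 13.6% in S19. Of the 5298 genes at least 2-fold lower at 30 dpa, the median gene had reached 21.2% in S20, 23% in S21 and 5.44% in S19. The 18 dpa libraries S16, S17 and S18, placed against the mean of the others, had 9.56, 12.8 and 22.3% for the higher genes and 22.3, 5.50 and 1.90% for the lower genes. Their gene sets were chosen anew with those means, and held 4565 to 5350 higher and 5223 to 5943 lower genes. The 30 dpa libraries S22, S23 and S24, each placed against the mean of the others with gene sets chosen anew, had 77.3, 102 and 69.6% for the higher genes. For the lower genes they had 100, 78.6 and 72.7%. These shares were not computed for S20 and S21 without S23 in the mean. For the later increases S20 and S21 thus lay above every 18 dpa library and within the range of 30 dpa. For the later decreases S20 and S21 lay about where S16 did. S19 lay inside the range of 18 dpa for both. Their distance off the line was also large, 1.1 and 1.12 on the log2 scale for S20 and S21 and 0.614 for S19, beside 0.705 to 0.789 for the 18 dpa libraries.

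**Figure D2:**
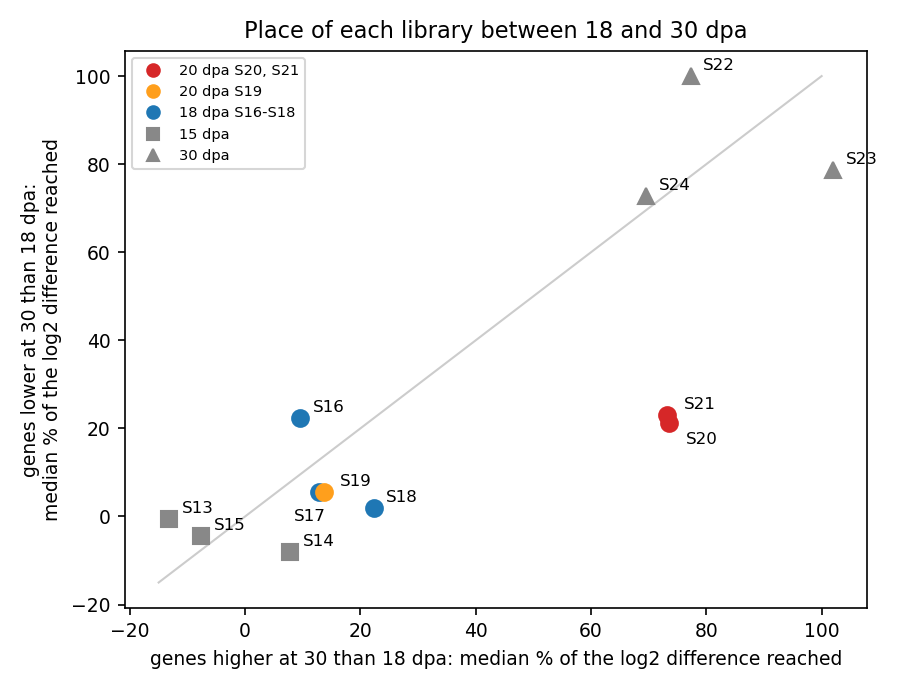
Median share of the log2 difference between 18 and 30 dpa that each library had reached, in percent, for genes higher (x axis) and lower (y axis) at 30 dpa; each point is a library of 15 to 30 dpa, those of 18 and 30 dpa placed against means that leave them out, and the grey line marks equal shares. S20 and S21 lie far below the line at 73.6 and 73.2% on the x axis and 21.2 and 23% on the y axis, and S19 lies among the 18 dpa libraries.

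With all 3 libraries of 20 dpa, few genes passed the test. A gene was called at a false discovery rate (FDR) of at most 0.05 and a change of more than 1.5-fold in edgeR's quasi-likelihood test with Benjamini-Hochberg adjustment. At 20 dpa 92 genes were higher and 2 lower than at 18 dpa, 94 in all, which is 0.212% of the genes tested (0.208% higher and 0.00452% lower). The smallest FDR was 0.00521, and 1072 genes had an FDR of at most 0.1. The fits counted here did not pair libraries, and only an alternative fit treated the replicate numbers as pairs. The deviations of equally numbered libraries from their group means were correlated in every pair (r of 0.38, 0.14 and 0.18 over 25069 genes). Deviations within a timepoint sum to 0, so these correlations are not independent of each other. But S20 correlated more with S18 (0.28) than with its equally numbered S17 (0.14). The correlations therefore do not show which libraries share a plant. With replicate number as a block, 1 gene was called.

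The 94 calls rested on single libraries. Without S19 (20 dpa replicate 1) 3494 genes were called, without S20 or without S21 1 gene each, without S16 (18 dpa replicate 1) 0 genes (with 5399 at an unadjusted p under 0.05), and without S17 or S18 of 18 dpa 1 and 4 genes. Leaving out 1 library of another timepoint gave 1 to 406 genes, the most without replicate 2 of 30 dpa. DESeq2 called 1785 genes on the same counts and limma called 0 on log2 TPM, with 5356 genes at an unadjusted p under 0.05 when 0.1 was added and 4533 when 1 was added.

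The single gene called with the block was TRITD4Bv1G199710 (chromosome 4B, 656774895 to 656779901, Svevo.v1), which is singled out here after its values were seen. It had 0.248, 0.220 and 0.354 TPM in S19, S20 and S21 at 20 dpa, and 0 TPM in all 3 libraries of 18 dpa. S19 was at the level of S20 and S21, and the timepoints did not overlap. In S20 and S21 the scaled counts were at least 60.3-fold higher than a floor of 3 counts over the 18 dpa group. The adjusted p was 0.00521 in edgeR's quasi-likelihood test and 0.0257 with the block. It was at 0 or close to 0 in the libraries of 15 and 30 dpa, and at 0.775 to 1.89 TPM at 6 dpa. Kallisto divides reads shared by near-identical transcripts by estimate, so a level of 0 may rest on that division.

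Both genes that fell with all 3 libraries did so in each of them. TRITD6Bv1G015100 (chromosome 6B, 42366448 to 42370005) was at 0.193, 0.0491 and 0.0106 TPM in S19, S20 and S21 at 20 dpa, against 0.672, 0.853 and 1.27 TPM at 18 dpa. Its log2 fold change was -3.50 ± 0.71 (SE) with an adjusted p of 0.0495 in edgeR. TRITD7Bv1G164110 (chromosome 7B, 518652553 to 518653431) was at 0.108, 0.152 and 0.0549 TPM at 20 dpa, against 0.411, 0.483 and 0.609 TPM at 18 dpa. The fitted log2 fold change was -2.24 ± 0.42 with an adjusted p of 0.0449 in edgeR. The groups did not overlap for either gene, and both were at 0 in all libraries of 30 dpa.

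Among called genes with at least 10 TPM in 1 group and no overlap between the groups, those that rose most with all 3 libraries were far higher in S20 and S21 than in S19. TRITD7Av1G173010 (chromosome 7A, 469491603 to 469492074) was at 7.20, 271 and 318 TPM in S19, S20 and S21 at 20 dpa, against 5.05, 2.21 and 0.797 TPM at 18 dpa. Its log2 fold change was 6.03 ± 1.06 (SE) with an adjusted p of 0.0449 in edgeR. TRITD7Av1G082010 (chromosome 7A, 195712938 to 195713315) was at 1.60, 35.8 and 40.0 TPM at 20 dpa, against 0.284, 0.836 and 0.369 TPM at 18 dpa. The fitted log2 fold change was 5.85 ± 0.93 with an adjusted p of 0.0320 in edgeR. In both, S19 lay above every 18 dpa library but closer to them than to S20 and S21, and all 3 libraries of 30 dpa were high. TRITD7Av1G173010 was at 157 to 706 TPM and TRITD7Av1G082010 at 53.7 to 186 TPM at 30 dpa. No product is given here for genes known by identifier only.

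The 92 genes summed to 129.7, 1779 and 2058 TPM in S19, S20 and S21 at 20 dpa, against 80.5 to 109.6 TPM at 18 dpa. S19 exceeded all 3 libraries of 18 dpa for 60 of the 92 genes (65.2%), compared with 11.6% of all genes tested. It fell below all of them for none, compared with 22.5% of all genes tested. The call with S19 in the group favours both.

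With S19 as a level of its own, 3475 genes were called in S20 and S21 against 18 dpa, 7.85% of the genes tested. Of these 2709 were higher (6.12%) and 766 lower (1.73%). All 94 genes called with all 3 libraries were among them, in the same direction. S19 was set aside because its profile was seen to differ, so these numbers describe S20 and S21 and do not test the timepoint again. No gene was called for S19 alone against 18 dpa (0% of the genes tested), with 764 genes at an unadjusted p under 0.05 in edgeR and its spread taken from the other groups. Between S20 and S21 and S19, 87 genes were called (0.197%), 84 higher and 3 lower in S20 and S21. These 2 contrasts were chosen after the data were seen. The count of 3475 was 2896 with replicate number as a block. It was 1518 without S16 and 1628 without S17 of 18 dpa, and 1515 without S20 and 1097 without S21. Without scaling beyond the library totals the split was 2260 higher and 287 lower, with a median shift of 0.12 on the log2 scale.

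Summed over the genes that were higher in S20 and S21, S19 lay at the level of 18 dpa. The 2709 genes summed to 23939 TPM in S20 and 21791 TPM in S21, and to 4577 TPM in S19, against 3539.8, 4381 and 5927 TPM at 18 dpa. At 1 TPM or more, 1473 of these genes were present in S20, 1312 in S21 and 595 in S19, against 501 to 689 at 18 dpa. At least 10 TPM in both S20 and S21 was reached by 299 of the 2709 genes, beside 5150 of the 44240 genes tested, and at least 100 TPM by 31, beside 627. For 549 genes both S20 and S21 reached 1 TPM while no library of 18 dpa did, beside 905 of the 44240 genes tested. For 166 genes no count was seen in any library of 18 dpa, and 121 of these had none in S19 either. Among all genes tested these numbers were 1255 and 1062. The set was chosen as higher in S20 and S21 than at 18 dpa, which favours such genes.

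Genes that were lower in S20 and S21 were already somewhat lower in S19. The 766 genes summed to 7696 TPM in S20, 5929 TPM in S21 and 11157 TPM in S19, against 13369.6, 13724 and 13438 TPM at 18 dpa. S19 fell below all 3 libraries of 18 dpa for 446 of the 766 genes (58.2%), compared with 22.5% of all genes tested, and rose above them for 11. Of the 2709 higher genes, S19 was above all 3 libraries of 18 dpa for 523 (19.3%), compared with 11.6% of all genes tested. These sets were chosen against the same 18 dpa libraries, so the shares of S19 are given as a description.

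**Figure D3:**
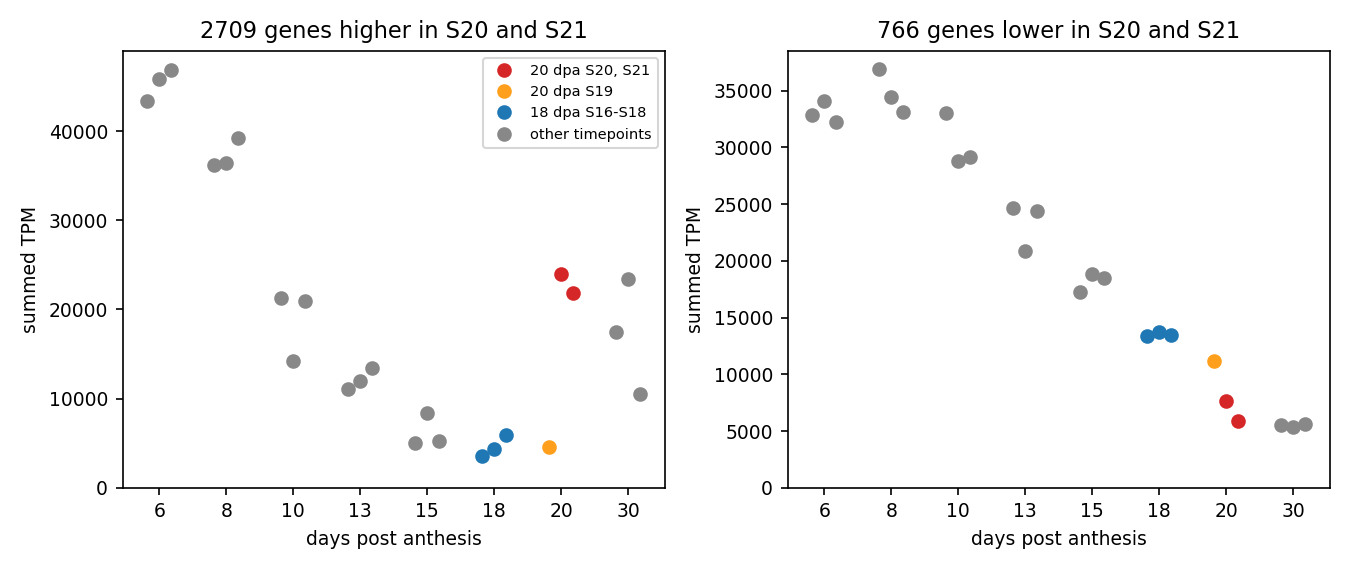
Summed TPM of the 2709 genes higher (left) and the 766 genes lower (right) in S20 and S21 than at 18 dpa, for each of the 24 libraries by days post anthesis; each point is a library. In the left panel S19 (4577 TPM) lies with the 18 dpa libraries and S20 and S21 lie at 23939 and 21791 TPM, and in the right panel S19 (11157 TPM) lies between the 18 dpa libraries and S20 and S21.

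Over the whole time course the level of both sets was followed at each timepoint. The higher genes often had their highest level in young endosperm. Their mean level was highest at 6 dpa for 1513 of the 2709 genes (55.9%, compared with 34.3% of all genes tested). It was highest at 20 dpa for 558 (20.6%, compared with 5.94%) and at 30 dpa for 265 (9.78%, compared with 5.05%). They summed to 43356 to 46837 TPM at 6 dpa, and to 5049, 8391 and 5249 TPM at 15 dpa. A mean of at least 1 TPM was reached at 6 or 8 dpa by 1637 of them (60.4%, compared with 65.4% of all genes tested), and at 30 dpa by 787 (29.1%, compared with 46.5%). The sets were chosen on S20 and S21 against 18 dpa, which favours a peak at 20 dpa in the higher set and disfavours one in the lower set. It also disfavours peaks at and near 18 dpa in the higher set, where 2.07% peaked at 13 dpa, compared with 20.5% of all genes tested. That raises the share of peaks at other timepoints, 6 dpa included. The shares of peaks in both sets are therefore given as a description. The lower genes declined in level through the later timepoints. Of the 766 genes, 328 had their highest mean at 13 dpa (42.8%, compared with 20.5% of all genes tested), none at 20 dpa and 1 at 30 dpa. They summed to 17241 to 18877 TPM at 15 dpa and to 5399.7 to 5633 TPM at 30 dpa, so S21 was near the level of 30 dpa.

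The higher genes were also uneven among replicates of other timepoints. For the higher genes, replicate 2 of 30 dpa (S23) was the highest of the 3 libraries of its timepoint for 2014 of the 2709 genes (74.3%), compared with 48.7% of all genes tested. Replicate 2 of 15 dpa (S14) was the highest of its timepoint for 2234 genes (82.5%), compared with 58.0% of all genes tested. In summed TPM of these genes the 30 dpa libraries had 17445, 23431 and 10500, so only S23 reached the level of S20 and S21. For the lower genes these shares were 31.7% for S23 and 45.7% for S14. The estimated counts totalled 64576814, 61486408 and 56180606 in S13, S14 and S15, and 56267817, 62847111 and 115800050 in S22, S23 and S24. The TMM scaling factors of the test were 0.788, 1.01 and 0.946 in S13, S14 and S15. In S22, S23 and S24 they were 0.490, 0.538 and 0.486, so S14 and S23 had the highest of their timepoints. The part of depth, composition, spike, plant or dissection in these differences was not tested.

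By the same measure, the largest increases in S20 and S21 were in genes with no counts at 18 dpa. TRITD1Bv1G136050 (chromosome 1B, 418575791 to 418576162) was at 38.4 TPM in S20, 168 TPM in S21 and 0 in S19, against 0 in all 3 libraries of 18 dpa. Its scaled counts in S20 and S21 were at least 1058-fold higher than a floor of 3 counts over the 18 dpa group. At 30 dpa it was at 6.18, 26.1 and 3.98 TPM, with the highest value in S23. TRITD6Bv1G043510 (chromosome 6B, 125523250 to 125523654) was at 68.7 TPM in S20, 65.8 TPM in S21 and 0.0842 TPM in S19, against 0 in all 3 libraries of 18 dpa. Its scaled counts in S20 and S21 were at least 755-fold higher than the same floor. At 30 dpa it was at 95.2 TPM in S23, and at 0.365 and 0.624 TPM in S22 and S24. It was therefore high in 3 of the 24 libraries, of which 2 were of 20 dpa and 1 was of 30 dpa.

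Among genes with at least 10 TPM in 1 of the groups, the largest decreases were in genes whose 18 dpa libraries differed widely. TRITD6Av1G000370 (chromosome 6A, 662785 to 663195) was at 0.862 TPM in S20, 1.05 TPM in S21 and 3.49 TPM in S19, against 5.51, 21.7 and 13.1 TPM at 18 dpa. It was at 2014 to 3974 TPM at 6 dpa and at 0.0519 TPM or less at 30 dpa. TRITD4Bv1G022500 (chromosome 4B, 58449620 to 58450093) was at 2.90 TPM in S20, 1.60 TPM in S21 and 4.55 TPM in S19, against 2.99, 35.8 and 32.5 TPM at 18 dpa. S16 of 18 dpa was thus almost at the level of S20. The log2 fold changes of S20 and S21 were -3.87 ± 0.88 and -3.43 ± 1.02 (SE) for these genes. In both, S19 lay below the mean of 18 dpa and above S20 and S21.

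**Figure D4:**
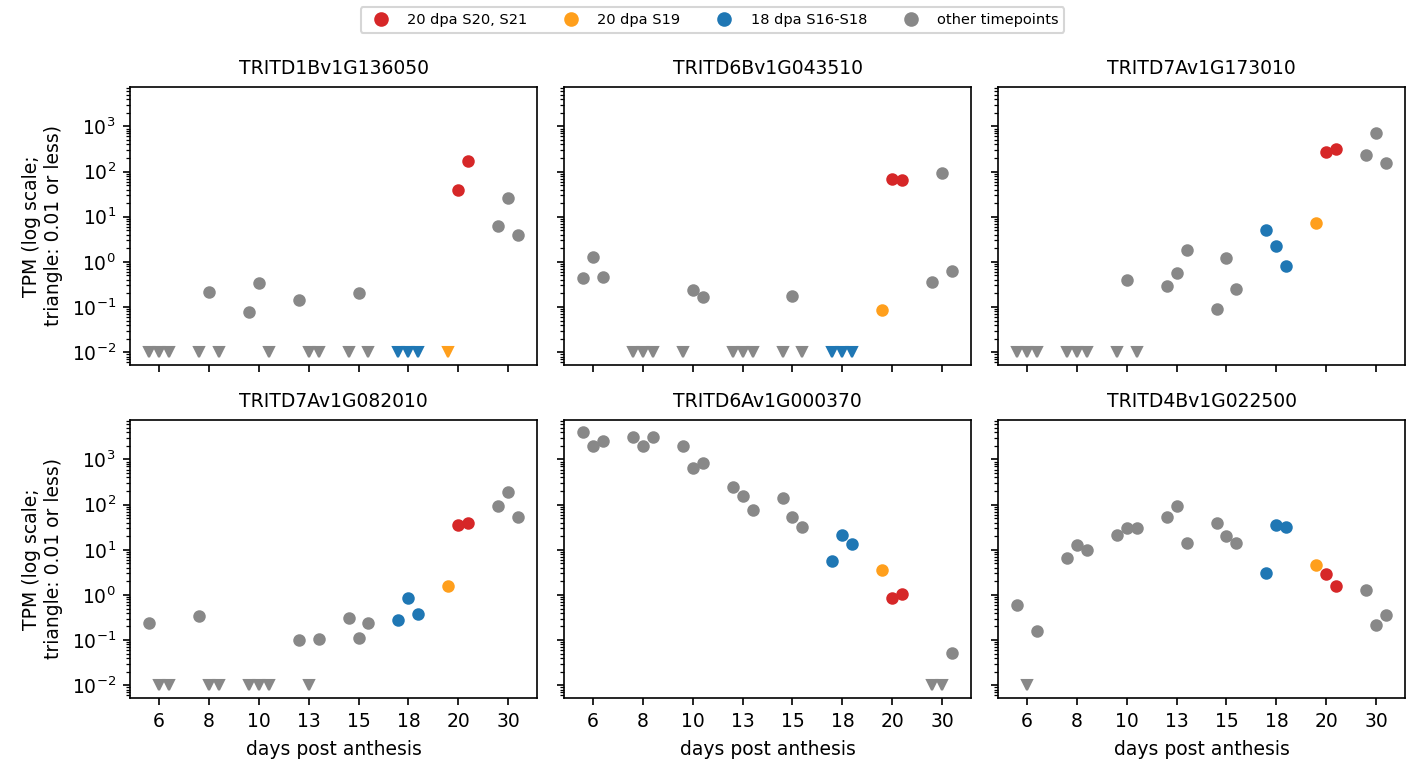
TPM (log scale) of 6 genes known by identifier in all 24 libraries by days post anthesis; each point is a library, and a triangle marks 0.01 TPM or less. The first 4 panels show S20 and S21 at 35.8 to 318 TPM with S19 at 7.20 TPM or less, and the last 2 panels show S19 between most of the 18 dpa libraries and S20 and S21.

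The called genes were spread over all 14 chromosomes. The higher genes of S20 and S21 were 5.40 to 7.02% of the genes tested on a chromosome, and the lower genes 1.37 to 2.18%. Of the 2659 higher genes with a position, 416 (15.6%) had a neighbour among the tested genes that was also higher, and 11.9% of all tested genes with a position had a neighbour that was higher. There were 23 runs of 3 or more neighbouring tested genes that were all higher, with 72 genes in them. The longest held 5 genes (chromosome 1B, 418162076 to 418583849), TRITD1Bv1G136050 among them. These 5 genes summed to 151 TPM in S20, 340.1 TPM in S21 and 0.933 TPM in S19, against 0.220, 0.647 and 1.58 TPM at 18 dpa. Reads of near-identical neighbours are divided by estimate, so the level of each gene in a run is less certain than the sum.

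Genes of starch metabolism were called at shares near those of all genes. Of 133 genes in 9 groups, 123 were tested, and none was called with all 3 libraries of 20 dpa in edgeR, where the smallest adjusted p was 0.0628 and 16 had an unadjusted p under 0.05. Over all genes 0.212% were called, so a count of 0 among 123 does not set them apart. An unadjusted p under 0.05 in this edgeR fit was found for 7256 of the 44240 genes tested. DESeq2 called 4 of the 123 starch-related genes, beside 1785 of the 44240 genes tested. With S19 apart 8 were called, 5 higher and 3 lower in S20 and S21. This is 6.50% of those tested, compared with 7.85% of all genes. The 8 became 2 without S16, 4 without S17, 3 without S20 and 1 without S21. Among the 92 of these genes whose average reached 1 TPM at either age, the median log2 fold change of S20 and S21 was -0.25, compared with -0.11 for the 24522 genes of that level. In S19 the median of the same 92 genes was 0.08. The summed level of the 8 main groups was 14578, 14119.7 and 11947 TPM in S19, S20 and S21 at 20 dpa, against 12445, 12290.1 and 14721 TPM at 18 dpa, and the timepoints overlapped.

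The genes that supply ADP-glucose were lower in S20 and S21 than in any 18 dpa library when summed, but not in S19. The 23 genes of the group, which hold the pyrophosphorylase subunits and Brittle1, summed to 3082, 2651 and 2031 TPM in S19, S20 and S21 at 20 dpa, against 2719, 3021 and 3626 TPM at 18 dpa. In S20 and S21 their median log2 fold change was -0.26, and 18 of the 23 were negative. For all genes averaging 1 TPM or more at either age the median was -0.11, and 14945 of 24522 were negative. Without scaling beyond the library totals the group had a median of -0.14 and 15 negative genes. All genes of that level then had 0.02 and 11856. BT1.1-B1, a Brittle1 transporter, was at 206, 127 and 73.6 TPM at 20 dpa, against 159, 171 and 256 TPM at 18 dpa. Its log2 fold change with all 3 libraries was -0.48 ± 0.46 (SE), with an adjusted p of 0.660 in edgeR. BT1.1-A1, its homeolog, was at 296, 205 and 129 TPM at 20 dpa, against 224, 227 and 352 TPM at 18 dpa. With all 3 libraries the endosperm pyrophosphorylase subunits had log2 fold changes of -0.39 for AGPS1-A1, -0.35 for AGPS1-B1, 0.01 for cAGPL-A1 and -0.09 for cAGPL-B1. Only pAGPL-A1, a plastidial large subunit, was called with S19 apart. It was at 19.1, 15.4 and 9.95 TPM at 20 dpa, against 19.5, 21.6 and 22.8 TPM at 18 dpa, and its log2 fold change in S20 and S21 was -0.79 ± 0.23.

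None of the 29 amylopectin synthesis genes was called in either fit, with 1 at an unadjusted p under 0.05 in edgeR with all 3 libraries and 4 with S19 apart. Over all genes 0.212% and 7.85% were called in these fits. An unadjusted p under 0.05 in edgeR was found for 7256 and 10388 of the 44240 genes tested. With all 3 libraries, the log2 fold changes of those with at least 1 TPM lay between -0.46 and 0.60. SS2a-A1, a starch synthase that lengthens amylopectin chains, averaged 80.3 ± 22.8 TPM at 20 dpa and 100.5 ± 20.1 TPM at 18 dpa (SD, n = 3 each). SS1-A1, which makes the shortest chains, averaged 83.5 ± 3.65 TPM at 20 dpa and 73.6 ± 5.91 TPM at 18 dpa. The branching enzyme SBE2b-A1 averaged 184 ± 25.2 TPM at 20 dpa and 213 ± 45.3 TPM at 18 dpa, and SBE1.1-A1 averaged 143 ± 18.6 TPM at 20 dpa and 127 ± 18.1 TPM at 18 dpa. The debranching enzyme ISA1-A1, which trims misplaced branches, averaged 47.8 ± 3.15 TPM at 20 dpa and 52.6 ± 5.90 TPM at 18 dpa. SS3a-A1, SS2a-B1, SS1-B1, SBE1.1-B1, SBE2a-A1, SBE2b-B1 and ISA1-B1 had log2 fold changes from -0.33 to 0.15. Each of these changes was smaller than its standard error.

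Of the 5 amylose genes, 2 (40%) were called lower with S19 apart, compared with 1.73% of all genes tested. The group is small and was not tested as a set. GBSS2-B1 was at 2.37, 1.25 and 1.03 TPM in S19, S20 and S21 at 20 dpa, against 3.42, 3.33 and 2.67 TPM at 18 dpa. Its log2 fold change was -1.51 ± 0.29 (SE) in S20 and S21 and -0.35 in S19. At 6 to 10 dpa it had been at 4.47 to 14.5 TPM, and at 30 dpa it was at 0.208 to 0.436 TPM. PTST1-B1, whose Arabidopsis counterpart brings granule-bound synthase to the granule, was at 8.97, 6.43 and 6.06 TPM at 20 dpa, against 11.8, 12.1 and 8.73 TPM at 18 dpa. In S20 and S21 it changed by -0.86 ± 0.24 on the log2 scale. The dominant synthases were not called, and GBSS1-A2 averaged 651 ± 144 TPM at 20 dpa and 685 ± 25.5 TPM at 18 dpa (SD, n = 3 each).

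The 5 starch-related genes called higher in S20 and S21 were low in level and belonged to degradation, phosphorylation and maltooligosaccharide metabolism. ISA3-A1, a debranching enzyme of starch breakdown, was at 0.190, 1.46 and 0.989 TPM in S19, S20 and S21 at 20 dpa, against 0.0665, 0.139 and 0.187 TPM at 18 dpa. The log2 fold change in S20 and S21 was 3.25 ± 0.62 (SE). Its homeolog ISA3-B1 was at 0.0330, 0.916 and 0.594 TPM at 20 dpa, against 0.0784, 0.168 and 0.203 TPM at 18 dpa, and its log2 fold change in S20 and S21 was 2.34 ± 0.64. In both homeologs S20 and S21 lay above every 18 dpa library. S19 was just above the highest of them for ISA3-A1 and below the lowest for ISA3-B1.

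GWD1.2-A1, a dikinase that phosphorylates glucans at the start of starch breakdown, was at 0.318, 2.00 and 1.34 TPM at 20 dpa, against 0.270, 0.489 and 0.513 TPM at 18 dpa. In S20 and S21 the log2 fold change was 1.97 ± 0.51. PHS2.1-B1, a cytosolic glucan phosphorylase, was at 2.97, 8.65 and 5.49 TPM at 20 dpa, against 1.58, 2.23 and 3.86 TPM at 18 dpa, and its log2 fold change in S20 and S21 was 1.49 ± 0.38. DPE2-A1, a cytosolic disproportionating enzyme that acts on maltose in Arabidopsis leaves, was at 0.468, 1.78 and 1.06 TPM at 20 dpa, against 0.231, 0.493 and 0.829 TPM at 18 dpa. For S20 and S21 the log2 fold change was 1.48 ± 0.40. At 30 dpa these genes were again highest in replicate 2. In S23, against S22 and S24, GWD1.2-A1 was at 1.25, against 0.236 and 0.272 TPM, and ISA3-A1 was at 1.84, against 0.410 and 0.383 TPM.

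With S19 apart, 2 of the 23 degradation genes tested were called (8.70%), 1 of 11 reversible phosphorylation genes (9.09%) and 2 of 9 maltooligosaccharide genes (22.2%), compared with 7.85% of all genes. Among members of at least 1 TPM, the median log2 fold change of S20 and S21 was 0.51 for reversible phosphorylation, 0.35 for maltooligosaccharide metabolism and -0.06 for degradation, compared with -0.11 for all genes of that level. In S19 these medians were -0.03, 0.03 and 0.16. Of the 11 phosphorylation genes, 6 had an unadjusted p under 0.05 in edgeR with S19 apart and 5 with all 3 libraries. Over all 44240 genes tested, the numbers were 10388 with S19 apart and 7256 with all 3 libraries. The most abundant degradation genes, the β-amylases BAM5.3-A1 and BAM5.3-B1, were at 3769 ± 186 and 3919 ± 239 TPM at 20 dpa, against 3255 ± 347 and 3267 ± 375 TPM at 18 dpa (SD, n = 3 each). Their log2 fold changes were 0.23 ± 0.76 and 0.28 ± 0.73 (SE), with adjusted p of 0.930 and 0.904 in edgeR. LDA-A1, the limit dextrinase, averaged 43.1 ± 10.8 TPM at 20 dpa and 50.8 ± 1.2 TPM at 18 dpa. The plastidial enzymes PHS1-A1 and DPE1-A1 had log2 fold changes of -0.24 and -0.21. The 15 secreted α-amylases, which mobilise starch in germinating grain, together stayed at 0.376, 0.268 and 0.713 TPM in S19, S20 and S21, against 0.315, 0.569 and 0.620 TPM at 18 dpa.

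Of the 9 granule initiation genes and the 8 plastidial transporters, none was called in either fit, with 1 granule initiation gene and 0 transporters at an unadjusted p under 0.05 in both fits. With groups this small, 0 calls is near the shares of all genes, 0.212% and 7.85%. Of the 44240 genes tested, 7256 had an unadjusted p under 0.05 in edgeR with all 3 libraries and 10388 with S19 apart. BGC1-A1, a carbohydrate-binding protein of B-type granule initiation, averaged 11.5 ± 0.165 TPM at 20 dpa and 11.4 ± 1.81 TPM at 18 dpa (SD, n = 3 each). SS4-A1 and MRC-A1, which act in granule initiation, stayed under 1 TPM in all 6 libraries. Under every scaling tried the medians stayed negative for ADP-glucose, amylopectin, amylose and granule initiation genes and positive for maltooligosaccharide and reversible phosphorylation genes, while those of degradation genes and transporters lay close to 0. With S19 apart these 2 medians were -0.06 and -0.10, and they were 0.08 and 0.02 without scaling.

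**Figure D5:**
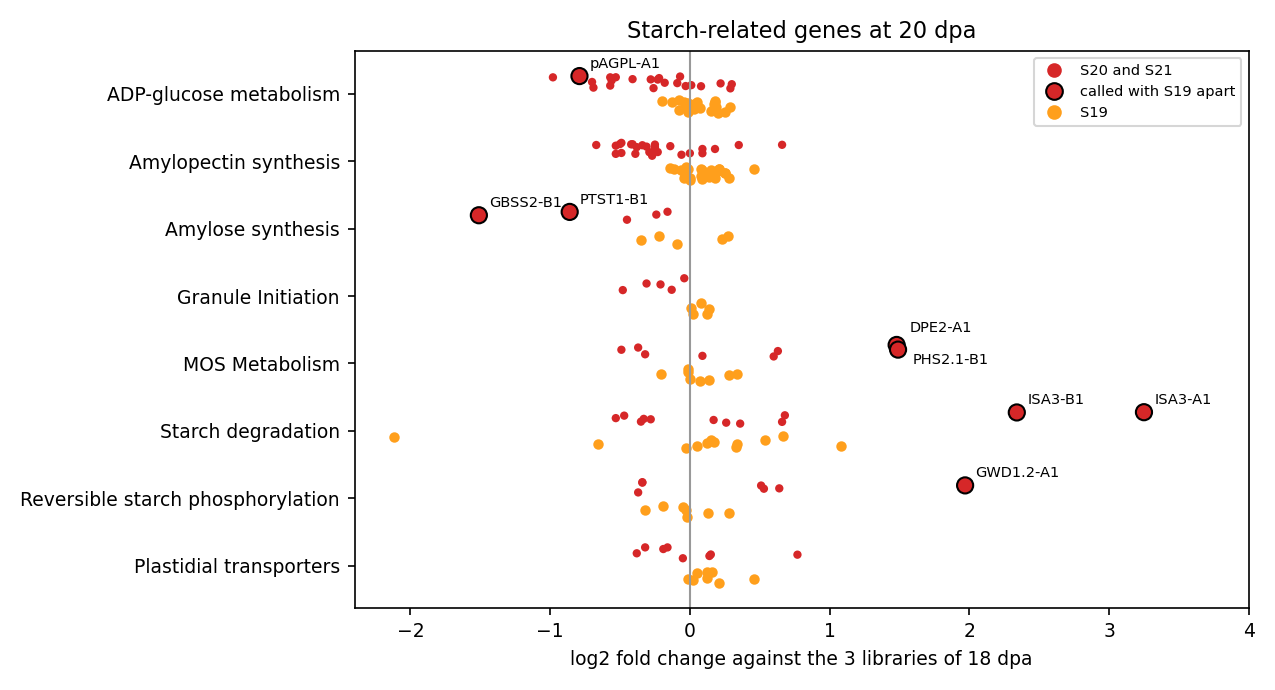
Log2 fold change against 18 dpa of the starch-related genes averaging 1 TPM or more at either age, together with any called gene below that level, for S20 and S21 (red) and S19 (orange), by group; each point is a gene, and outlined points were called with S19 apart. The 5 genes called higher lie between 1.48 and 3.25, the 3 called lower between -1.51 and -0.79, and most others lie near 0.

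The most abundant transcripts took about the same share at both timepoints. The 10 most abundant held 40.7, 37.6 and 43.2% of TPM in S19, S20 and S21 at 20 dpa, against 41.6, 39.0 and 34.0% in S16, S17 and S18 at 18 dpa. The means were 40.5% ± 2.78 and 38.2% ± 3.85 (SD, n = 3 each, two-sided exact permutation test, p = 0.5, where 0.1 is the smallest p that 3 against 3 allows). S20 had the highest total count of the 6 libraries, 78676665, while S21 and S19 had 59579599 and 58278667.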

How the data were processed

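Endosperm RNA of durum wheat, variety Kronos, was sequenced as poly-A selected 150 bp pairs. The authors pseudoaligned the reads to the canonical transcripts of Svevo v1 with kallisto (version 0.46.1 in the submitters' processing notes, which also name DESeq2) and deposited estimated counts, not scaled between libraries. The deposited TPM values come from the same runs and were scaled by the authors to effective length and a fixed total per library.

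Counts were rounded. A gene entered the test when 3 or more libraries held 10 counts or more of it. The test was edgeR's quasi-likelihood test (version 4.0.16, R 4.3.3) over all 24 libraries, scaled by TMM and with timepoint as the factor, once with 20 dpa as 1 level and once with S19 as a level of its own. A gene was called at an FDR of at most 0.05 and a change of more than 1.5-fold. Log2 CPM for distances used a prior count of 2. At these depths a count of 0 allows an expected count of up to 3 in a library, and such limits cover counting error only. The adjusted p-values rest on the spread between libraries within a timepoint, estimated over all 24 libraries. Each library is 1 spike, so plant, spike and dissection cannot be told apart in that spread, and some timepoints share plants. With S19 as a level of its own, S19 adds nothing to that spread. All replicate pairs differed by more than sampling noise.

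Positions are those of RefSeq's table for Svevo.v1, matched by locus tag for 63993 of the 66559 genes. The table gave no products. Starch-related genes and their groups are those curated in the study by orthology. The genes named were the main starch genes and those called in either fit, and for genes known by identifier, in each fit, up to 2 that rose and 2 that fell most among calls with at least 10 TPM in 1 group and no overlap, with both genes that fell in the fit of all 3 libraries. Other counts of 5 or fewer, in alternatives and in the contrasts with S19, are given as numbers only, which departs from the rule. Replicate numbers were treated as pairs only in the block, and not in the 2 main fits. This rested on the correlations alone, since the sources do not say which libraries share a plant. S20 correlated more with S18 (0.28) than with S17 (0.14). The S19 rule, the gene lists and the tests were chosen with earlier results of these data known.

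Alternatives were DESeq2 1.42.0, limma 3.58.1 on log2 TPM with 0.1 or 1 added, other scalings, filters and fold thresholds, only the 6 libraries, replicate number as a block, and each library left out. The scripts were tested on simulated data. Figures were made with Python 3.11.15 and matplotlib 3.10.9.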

Additional observations from a re-analysis of the deposited data

How the results depend on the processing

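The number of genes called with all 3 libraries of 20 dpa (94) stayed within 1.5 times of itself in 4 of 36 alternatives. It was 1785 with DESeq2, 0 with limma on log2(TPM + 0.1) and on log2(TPM + 1) (5356 and 4533 genes at an unadjusted p under 0.05), 145 with DESeq2 size factors in edgeR, 1 without scaling, 331 without a filter, 36 at 10 CPM, 0 with only the libraries of 18 and 20 dpa (6283 genes at an unadjusted p under 0.05), 1 with the replicate block, and 0 to 3494 with 1 library left out. For S19 alone, added after the data were seen, it was 0. With S19 apart the number (3475) stayed within 1.5 times in 29 of 36 alternatives, and was 1774 with limma on log2(TPM + 1), 1469 at 10 CPM, 2263 at an absolute log2 over 1.5 and 1097 to 3974 with 1 library left out. Starch-related genes called with all 3 libraries (0) were 4 with DESeq2, 1 without a filter and 0 to 8 with 1 library left out. With S19 apart (8) they were 5 with limma on log2(TPM + 1), 5 at 10 CPM, 4 at an absolute log2 over 1.5 and 1 to 11 with 1 library left out. On the way to 30 dpa, as a fraction, S20 and S21 lay at 0.313 and 0.386 on log2(TPM + 0.1) and at 0.324 and 0.361 at 10 CPM. With 1 library left out S20 lay at 0.316 to 0.530, S21 at 0.320 to 0.532 and S19 at 0.101 to 0.198. The cause of these shifts was not tested. Of 1555 values of 46 named genes under the alternatives, 1420 kept their call or lack of one, 19 gained a call, no called value changed direction and the others lost a call. Where 1 library was left in a group, it was assumed to vary like the other groups. S20 and S21 are 2 libraries, each of 1 spike.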
